A study of Mus musculus with 11 samples.

Results

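The cassette MKOS, which encodes Myc, Klf4, Oct4 and Sox2 in that order, was set against OSKM, OK+9MS and OKN-HAMS, which share with it a long form of Klf4. These 4 arrays are 4 of the 11 in the series, and they were chosen by construct name and not by any measured value. The question was how far MKOS lay from the mean of the other 3 cassettes for each gene, and whether it lay outside their range. Among these 4, the label names additional Klf4 residues only for OK+9MS (9 residues). Klf4L, 1 of the constructs with Klf4 alone, is likewise titled Klf4+9. That OSKM, MKOS and OKN-HAMS belong beside it rests on what is known of these constructs, and the label OKN-HAMS is not spelled out in the sources used here.

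The cells were male F1 hybrid mouse embryonic fibroblasts (MEFs) from embryos at 13.5 days post coitum. All of them carried ROSA-rtTA, a transactivator that responds to doxycycline, and the Nanog-GFP reporter. Each received a PB-TAC piggyBac transposon carrying its construct and mCherry, together with the transposase plasmid pCyL43. Doxycycline was given at 1 ug/mL. The 4 cassettes compared, the other 4 cassettes of the series (OKMS, STEMCCA, EB-C5 and WTSI) and the 2 constructs with Klf4 alone (Klf4S and Klf4L) were harvested on day 6 as mCherry-positive cells. Cells with lacZ were unsorted and taken on day 2, so wherever lacZ is named its transgene cannot be told apart from harvest day and sorting. Each construct has 1 array, and the number of arrays limits the precision.

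Klf4 is a zinc finger transcription factor that can activate epithelial genes, keratins among them, and helps fibroblasts lose their mesenchymal programme early in reprogramming. Oct4 (gene Pou5f1) and Sox2 bind together at genes of the pluripotent state, and Myc promotes growth and cell division. In a polycistronic cassette the factors are translated from 1 transcript, separated by peptides at which the chain is released, so order can bear on how much of each factor is made. The arrays measured RNA and not protein.

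Measured levels are log2 signals, on which a difference of 1 is 2-fold. Signals under 6 lie near the low end of the arrays and cannot be told from background by the values alone. A difference from such a level is therefore a lower bound in size. Differences are MKOS minus the mean of the 3 comparators and are given with a standard error (SE) from limma, a linear model fitted across all genes. That SE assumes that the single MKOS array varies as the 3 comparators do, whose spread is one between different constructs and not between repeated cultures.

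The factors themselves were read first. The Pou5f1 signal was 12.29 in MKOS, against 12.73 in OSKM, 13.01 in OK+9MS and 13.12 in OKN-HAMS. MKOS was the lowest of these 4, with a difference of -0.66 ± 0.18 (SE, n = 1 against n = 3), and STEMCCA, at 11.89, was the only cassette of the series below it. The Klf4 signal was 9.65 in MKOS and 9.999, 9.81 and 10.19 in OSKM, OK+9MS and OKN-HAMS. It was lowest in MKOS, by -0.34 ± 0.18, and it read 9.47 in lacZ and 9.64 to 10.20 in the other 4 cassettes. Myc read 10.64 in MKOS against 10.66, 10.91 and 10.86, and Sox2 read 6.59 in MKOS, inside the comparators' range of 6.57 to 6.63. Without a Sox2 transgene, lacZ read 6.79, above these 4, and Klf4S and Klf4L read 6.24 and 6.33. The Sox2 signal therefore cannot compare the amount of transgene RNA between cassettes. The regions covered by the probes are not stated in the sources used here, and a factor's signal can hold both transgene and cellular RNA.

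Keratins, epithelial junction genes, dividing-cell genes and several pluripotency genes read lower in MKOS, and matrix, mesenchymal and interferon-response genes read higher. MKOS lay at least 2-fold from the comparators' mean and outside their range for 267 of 19938 genes (1.34%). Of these, 178 were lower in MKOS (0.893%) and 89 were higher (0.446%). At any size, MKOS lay below all 3 comparators for 6231 genes (31.3%) and above all 3 for 5396 (27.1%), so lying outside the range (11627 genes, 58.3%) is by itself common. Each list count below is to be read beside these shares. No gene passed limma's test at a Benjamini-Hochberg adjusted p under 0.05 (the smallest was 0.354), while 2185 genes (11.0%) had an unadjusted p under 0.05. An exact permutation test of 1 array against 3 cannot go below 0.25. When all 11 arrays gave the spread, limma called 13 genes instead, 3 higher and 10 lower, and the other settings tried called 0. In whole sorted populations, fewer cells of a type and less RNA per cell cannot be told apart.

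**Figure D1:**
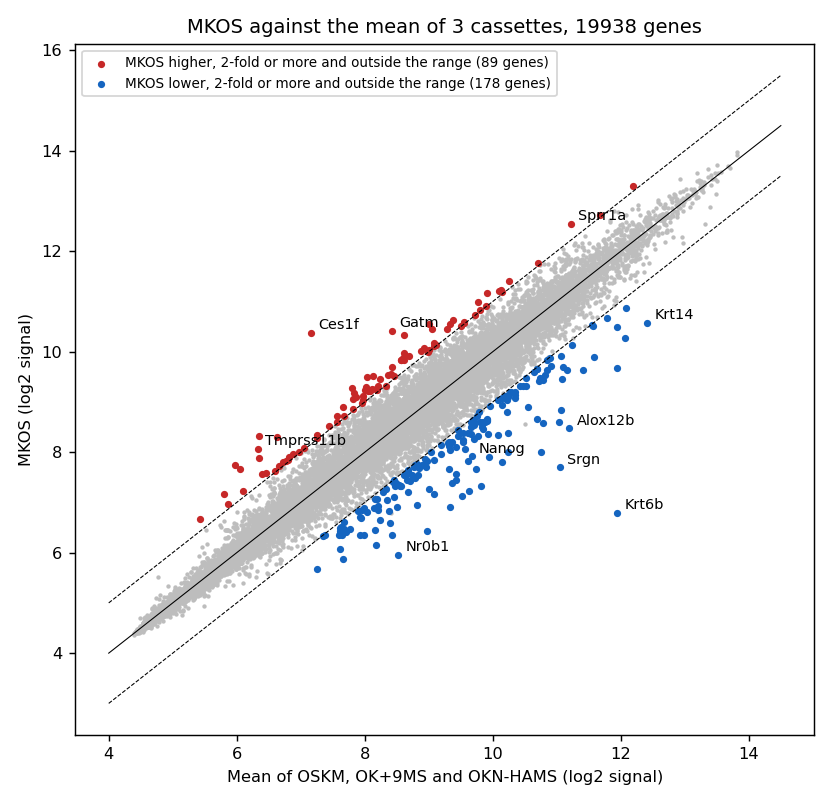
Log2 signal of each gene in MKOS (vertical axis) against the mean of OSKM, OK+9MS and OKN-HAMS (horizontal axis), 1 point per gene. Coloured points lie outside the range of the 3 comparators and at least 2-fold from their mean, 178 below the diagonal and 89 above it, with Krt6b and Ces1f farthest out.

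MKOS was nearer to OSKM and OK+9MS than to OKN-HAMS. It differed 2-fold or more from OSKM in 254 genes (1.27%), from OK+9MS in 273 (1.37%) and from OKN-HAMS in 822 (4.12%). OSKM and OK+9MS differed from each other in 59 genes (0.296%), so MKOS stood farther from both than they did from one another. OKN-HAMS also stood apart from OSKM, with 284 genes (1.42%), and from OK+9MS, with 203 (1.02%). It was the comparator farthest from MKOS for 69 of the 89 higher genes and 88 of the 178 lower ones. Over all 19938 genes it was the farthest for 9049, so only the higher side stood well above that share. Without OKN-HAMS the higher genes numbered 38, of which 35 were among the 89. Without OSKM they numbered 159 and without OK+9MS 149. The lower genes numbered 169, 226 and 212 in the same order, so the lower side moved less with the choice of comparators.

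Keratins of stratified epithelia gave the largest difference in the comparison. Krt6b, a keratin of activated and wounded epidermis, read 6.79 in MKOS against 11.28 in OSKM, 12.27 in OK+9MS and 12.28 in OKN-HAMS. It was low in MKOS and high in all 3 comparators, with a difference of -5.15 ± 0.51. Klf4S (9.996), Klf4L (10.35) and OKMS (11.37) also read well above MKOS, whereas STEMCCA read 7.84 and EB-C5, WTSI and lacZ between 5.96 and 6.31. The near-identical paralog Krt6a could share probes with it, and Krt6a itself read 9.08 in MKOS against 9.66, 10.56 and 10.21 (-1.06 ± 0.41). That difference is -0.85 without OK+9MS.

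Krt14, the basal-layer keratin, read 10.57 in MKOS and 12.48, 12.42 and 12.34 in OSKM, OK+9MS and OKN-HAMS. The comparators lay within a narrow span and MKOS was below all of them (-1.84 ± 0.09). Krt14 was near 7 in STEMCCA, EB-C5, WTSI and lacZ (6.76 to 7.01), so MKOS was still high beside those arrays. Klf4S (10.84) and Klf4L (11.37) read above MKOS. Krt16, a keratin of hyperproliferative epidermis, read 9.47 against 10.78, 11.26 and 10.19, and Krt17 read 12.17 against 13.18, 12.90 and 12.84. Krt16 was also higher in Klf4S (10.39) and Klf4L (10.46) than in MKOS, whereas Krt6a was lower in them (7.88 and 8.46). Over the 13 stratified keratins measured, 11 lay below all 3 comparators and 0 above, 4 of them by 2-fold or more, with a median difference of -0.80 against -0.0058 over all genes. Krt90, with 8.55 in MKOS and 8.50 in OKN-HAMS but 11.50 in OSKM and 11.52 in OK+9MS, was among the 2 inside the range. Krt5, the usual partner of Krt14, read only 7.14 to 7.41 in the 4 arrays.

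The simple keratins, which line single-layered epithelia, split. Krt19 read 10.88 in MKOS against 12.00, 12.33 and 11.91 (-1.20 ± 0.20). Krt18 read 8.38 against 9.45, 9.65 and 9.51 (-1.15 ± 0.11), and its partner Krt8 read 12.88 against 13.36, 13.43 and 13.39. Krt20, a keratin of intestinal and urothelial surface cells, went the other way, with 8.31 in MKOS against 6.39, 6.60 and 6.91 (1.68 ± 0.24). MKOS was the only one of the 11 arrays in which Krt20 read above 7. Of the 7 simple keratins, 4 lay below the comparators and 1 above.

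Junction and adhesion genes of epithelia read lower in MKOS in most cases, mostly by less than 2-fold. Of 36 measured, 26 lay below all 3 comparators and 3 above, 4 of the 26 by 2-fold or more, with a median difference of -0.45. Rab25, a small GTPase of epithelial vesicle recycling, read 7.39 in MKOS against 9.76, 9.05 and 9.26 (-1.96 ± 0.33). The tight junction protein Cldn6 read 8.59 against 9.18, 10.33 and 10.01. The polarity protein Pard6b (8.38 against 9.14, 9.88 and 9.81) and the desmosomal plakophilin Pkp2 (8.53 against 9.49, 9.82 and 9.80) were also lowest in MKOS. Cdh1 (E-cadherin), the defining adhesion molecule, read 11.03 in MKOS against 11.46, 11.40 and 11.39, a difference of -0.39 ± 0.07 that is close to the list's median. At that level it was above every array outside these 4, of which OKMS was highest at 10.10. Dsp (desmoplakin) read 11.40 in MKOS and 11.30, 11.06 and 11.34 in the comparators, and Cldn3 read 9.29 against 9.21, 8.47 and 8.88, so neither was lower.

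Regulators of epithelial identity were led by Ehf, an ETS-family transcription factor of epithelia. Ehf read 8.84 in MKOS and 10.65, 11.23 and 11.30 in OSKM, OK+9MS and OKN-HAMS (-2.22 ± 0.32), against 6.12 in lacZ and 6.73 in both Klf4-alone arrays. The splicing factor Esrp1, which favours epithelial isoforms, read 9.08 against 10.18, 9.77 and 10.62 (-1.11 ± 0.38, and -0.90 without OKN-HAMS). Of 15 regulators, 11 lay below the comparators and 0 above, against 31.3% and 27.1% of all genes. Trp63, the master regulator of stratified epithelia, read 6.93 in MKOS against 6.89, 7.04 and 6.97, so the keratin differences stood beside a flat Trp63 signal.

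Genes of terminal epidermal differentiation lay on both sides of the comparators. Of 31 measured, 9 lay below the comparators, 8 above and 14 inside, with a median difference of -0.01. Over all genes 31.3% lay below and 27.1% above, so these counts were close to those of genes in general. In 13 of them both MKOS and the comparators' mean were under 6. Over the 15 genes that reached 7 on at least 1 of the 4 arrays the median was -0.45. A gene can pass that filter through a comparator alone, and 3 of the 4 arrays are comparators. That median can therefore lean toward lower values in MKOS, and no direction is read from it. Krtdap, a secreted product of differentiating keratinocytes, read 8.67 in MKOS against 10.44, 10.69 and 10.95 (-2.03 ± 0.23). Lypd3 read 7.21 against 8.71, 9.31 and 8.01. Higher in MKOS were Sprr1a, a precursor of the cornified envelope (12.55 against 12.20, 11.27 and 10.17), and Ivl, involucrin (7.72 against 6.42, 7.03 and 6.55). The Sprr1a difference of 1.34 ± 0.90 is 0.81 without OKN-HAMS, and that of Ivl, 1.06 ± 0.29, is 0.93 without OSKM. Sbsn, suprabasin, read 8.94 in MKOS against 8.10, 8.18 and 8.20, also above all 3. The MKOS signal of Sprr1a and of Ivl was the highest of the 11 arrays.

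**Figure D2:**
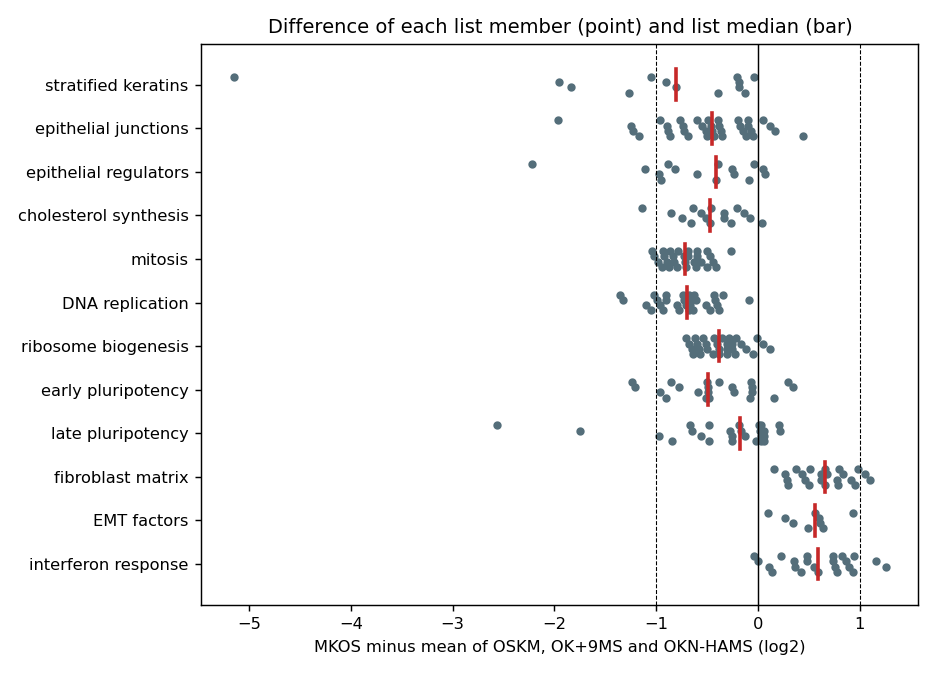
Difference of MKOS from the comparators' mean (log2) for every measured member of selected gene lists, 1 point per gene and 1 row per list. Red bars are list medians and dashed lines mark 2-fold. Stratified keratins, mitosis and replication genes lie below 0, and matrix, EMT (epithelial-mesenchymal transition) and interferon-response genes almost wholly above it.

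The lower genes with the widest gap to the nearest comparator differed from the comparators by about 2 log2 units or more. Ret, the receptor tyrosine kinase for GDNF-family ligands, read 6.91 in MKOS and 9.21, 9.32 and 9.47 in OSKM, OK+9MS and OKN-HAMS (-2.42 ± 0.13). Alox12b, the lipoxygenase of the epidermal water barrier, read 8.48 against 11.31, 11.57 and 10.71 (-2.72 ± 0.39). Cyp2s1, a cytochrome P450 of epithelia, read 9.68 against 12.09, 11.98 and 11.77 (-2.26 ± 0.16). The comparators lay close together for Ret and Cyp2s1 and farther apart for Alox12b, and MKOS was below all of them by more than 2 units in each case. Plek2, a pleckstrin-family protein, read 8.59 against 10.89, 10.83 and 10.66, and Tnfrsf8 (CD30) read 7.33 against 10.34, 9.75 and 9.35. Atp2a3, a calcium pump of the endoplasmic reticulum, read 8.59 against 10.69, 10.90 and 11.50. Trim29 (7.23 against 9.94, 9.94 and 8.99) and the hair keratin Krt84 (6.43 against 8.94, 9.58 and 8.37) were likewise low in MKOS alone among the 4. Slc15a1, the intestinal peptide transporter PEPT1, read 6.15 in MKOS, near background, and 8.54, 7.95 and 8.02 in the comparators. Crybg1 read 8.01 against 10.46, 11.35 and 10.48, but its difference of -2.76 ± 0.45 becomes -1.49 when its probe sets are averaged.

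**Figure D3:**
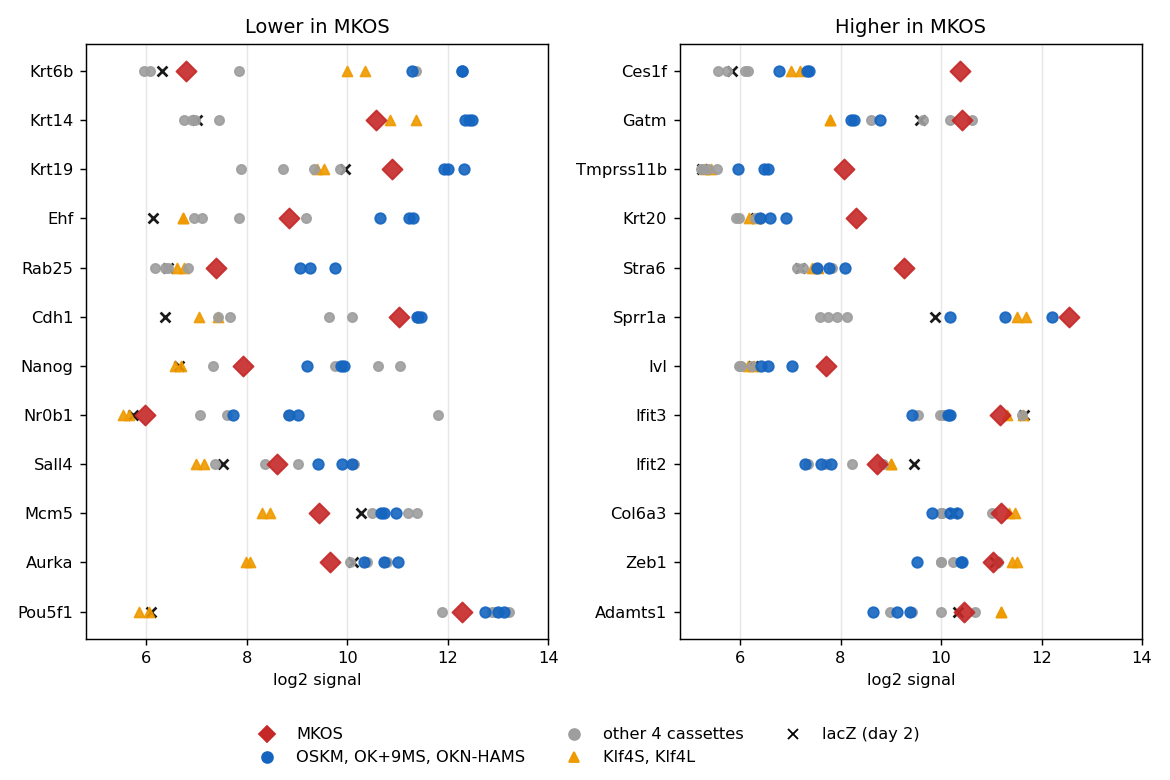
Log2 signal on each of the 11 arrays for named genes lower in MKOS (left) and higher in MKOS (right), 1 marker per array and 1 row per gene. MKOS lies apart from OSKM, OK+9MS and OKN-HAMS in each row, by more than 4 units for Krt6b and by 0.36 for Cdh1.

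Pluripotency genes were mostly lower in MKOS. Nanog, a core transcription factor of the pluripotent state, read 7.92 in MKOS against 9.93 in OSKM, 9.20 in OK+9MS and 9.87 in OKN-HAMS (-1.75 ± 0.36). MKOS was below all 3 but above the Klf4-alone arrays and lacZ, which read 6.57 to 6.69. The cells carry Nanog-GFP, and whether that reporter adds to the signal was not tested. Nr0b1 (Dax1), a nuclear receptor of embryonic stem cells, read 5.96 in MKOS against 7.71, 8.83 and 9.02. It was at background in MKOS, so the difference of -2.56 ± 0.63 is a lower bound in size. Esrrb, an orphan nuclear receptor of naive pluripotency, read 6.71 against 7.47, 7.36 and 7.82. Of 26 genes of late pluripotency, 15 lay below the comparators and 3 above, against 31.3% and 27.1% of all genes. Of the 15, 2 were lower by 2-fold or more, and the list's median was -0.18. In 8 of the 26 both levels were under 6. Over the 12 genes that reached 7 on at least 1 of the 4 arrays the median was -0.61. Genes such as Nr0b1 pass that filter through the comparators alone, so the filtered median can lean toward lower values in MKOS.

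Of 22 genes of early reprogramming and pluripotency, a list that also holds Cdh1 and Epcam, 15 lay below and 2 above, with a median of -0.49. Sall4, a zinc finger factor of early pluripotency, read 8.60 in MKOS and 9.42, 10.10 and 9.89 in the comparators (-1.20 ± 0.31). Utf1, a chromatin-associated pluripotency factor, read 7.34 against 7.55, 9.61 and 8.55. Its comparators were far apart and OSKM lay close to MKOS, so the difference of -1.23 ± 0.91 is -0.71 without OK+9MS. The alkaline phosphatase Alpl, an early marker of reprogramming cells, read 9.76 in MKOS, inside the range of 8.43 to 10.39. The Pou5f1 signal was lower in the same array by 0.66, and its part in these differences was not tested.

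The Nanog promoter is shown because Nanog gave the largest difference among the pluripotency genes that MKOS read above background. RefSeq's window for Nanog on GRCm38.p6, chr6:122707239-122707538 on the plus strand, covers the start of the gene and the bases just before it. The capitals mark its single match to ATGCAAA, the octamer letters that Oct4 recognises, here on the opposite strand.
Nanog: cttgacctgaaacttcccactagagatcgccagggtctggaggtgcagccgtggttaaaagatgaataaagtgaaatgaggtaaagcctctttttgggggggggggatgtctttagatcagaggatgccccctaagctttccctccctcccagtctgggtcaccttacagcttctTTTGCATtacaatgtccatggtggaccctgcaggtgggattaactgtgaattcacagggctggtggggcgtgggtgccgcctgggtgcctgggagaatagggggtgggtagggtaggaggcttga
Both strands were searched. ATGCAAA stood in 4.59% of all 27025 promoters, in 10 of the 136 lower genes that have a promoter in the table (7.35%) and in 2 of 67 higher genes (2.99%). A match describes the letters of the window and not binding.

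Genes of cell division read lower in MKOS with few exceptions. All 29 measured genes of mitosis lay below all 3 comparators, against 31.3% of all genes, with a median difference of -0.71. The mitotic kinase Aurkb read 9.65 in MKOS against 10.55, 10.53 and 10.98 (-1.04 ± 0.23), and Aurka read 9.66 against 10.33, 10.73 and 11.00 (-1.03 ± 0.30). Plk1, another mitotic kinase, read 10.51 against 11.32, 11.35 and 11.67. These 2-fold differences rest on OKN-HAMS: without it Aurkb is at -0.89, Aurka at -0.87 and the list's median at -0.64, with 0 members at 2-fold.

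Of 30 genes of DNA replication, 29 lay below the comparators and 1, Gins3, inside, with a median of -0.69. Mcm5, a subunit of the replicative helicase, read 9.43 in MKOS against 10.72, 10.66 and 10.98 (-1.35 ± 0.16). Mcm10, which helps start replication forks, read 8.20 against 9.16, 9.59 and 9.84. The licensing factor Cdt1 read 9.14 against 10.37, 10.22 and 10.15, a narrow comparator span with MKOS about 1 unit below it. Rrm2, a subunit of ribonucleotide reductase, read 10.51 against 11.48, 11.52 and 11.69. Klf4S and Klf4L read lower still for all 4, for example 8.45 and 8.30 for Mcm5, and MKOS lay between them and the comparators.

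Ribosome biogenesis genes and other targets of Myc showed the same direction at smaller size. Of 31, 25 lay below the comparators and 1 above, 0 by 2-fold, with a median of -0.38. Polr1b, a subunit of RNA polymerase I, read 10.31 in MKOS against 10.85, 11.30 and 10.80. The nucleolar proteins Gnl3 (10.08 against 10.78, 10.66 and 10.69) and Nolc1 (9.96 against 10.54, 10.66 and 10.61) were also below all 3. Ncl, nucleolin, read 11.99, inside the comparators' range of 11.74 to 12.11, and Npm1 was above it (11.86 against 11.76, 11.65 and 11.79). The Myc signal itself was 10.64 in MKOS against 10.66 in the nearest comparator.

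Cholesterol synthesis genes were lower in 15 of 16 cases, 1 of them by 2-fold, with a median of -0.47. Pmvk, phosphomevalonate kinase, read 7.81 in MKOS against 8.74, 9.06 and 9.05 (-1.14 ± 0.17). Idi1, the isomerase of isopentenyl diphosphate, read 9.95 against 10.83, 10.57 and 10.34. Insig1, a sterol-responsive regulator of the pathway, read 9.86 against 11.07, 10.57 and 10.52. The list's mean was 10.24 to 10.33 in the comparators, 9.82 in MKOS, 9.58 to 9.66 in the Klf4-alone arrays and 10.43 in lacZ, the highest of the 11.

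**Figure D4:**
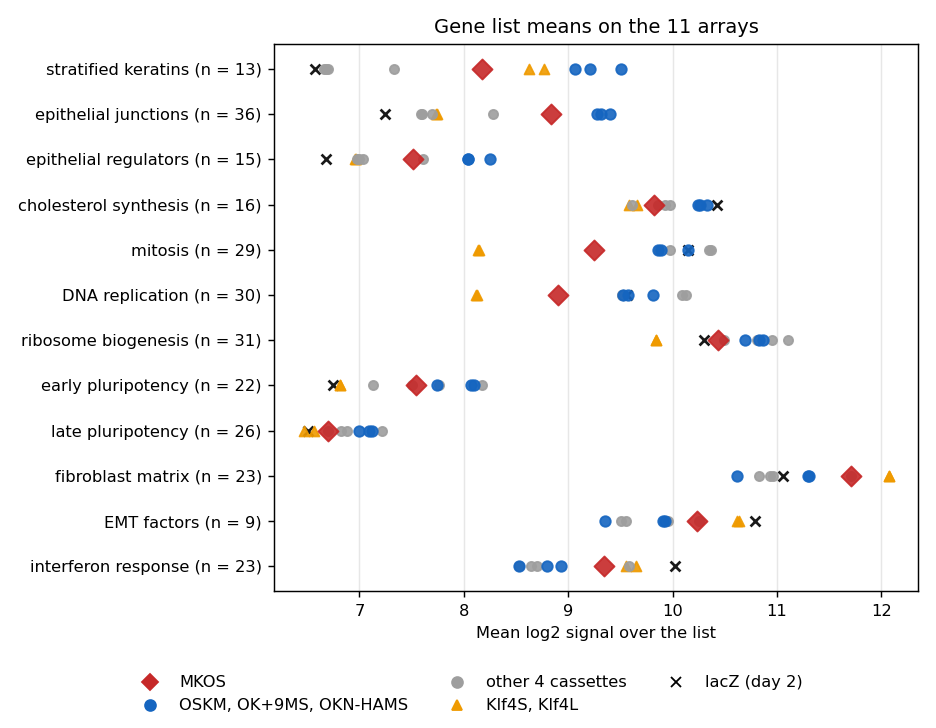
Mean log2 signal of selected gene lists on each of the 11 arrays, 1 marker per array. For mitosis, replication, ribosome biogenesis, matrix, mesenchymal factors and the interferon response, MKOS lies between the 3 comparators and the 2 arrays with Klf4 alone.

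Matrix and mesenchymal genes read higher in MKOS. Of 23 genes of the fibroblast matrix, 21 lay above all 3 comparators and 0 below, against 27.1% of all genes above, with a median difference of 0.66. Col6a3, a chain of type VI collagen, read 11.20 in MKOS against 10.31, 10.19 and 9.81 (1.10 ± 0.24). Col5a2, a chain of type V collagen, read 10.12 against 9.44, 9.37 and 8.42 (1.05 ± 0.51). Col1a1 read 12.84 against 12.28, 12.34 and 11.92. Without OKN-HAMS, whose list mean of 10.61 was the lowest of all 11 arrays, Col6a3 is at 0.95, Col5a2 at 0.72 and the list's median at 0.40.

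Of 9 transcription factors of the epithelial-mesenchymal transition, 8 lay above the comparators and 0 below, 0 by 2-fold. The median difference was 0.56, and 0.39 without OKN-HAMS. Zeb1, a repressor of epithelial genes, read 11.04 in MKOS against 10.39, 10.42 and 9.52 (0.93 ± 0.46). Snai2 read 10.70 against 10.22, 10.21 and 9.84, and Twist1 read 9.44 against 9.03, 8.88 and 8.48. MKOS was the highest of the 4 for each. Among 18 fibroblast identity genes, 11 lay above and 3 below, against 27.1% and 31.3% of all genes. Their median was 0.36, and 0.20 without OKN-HAMS. Thy1, a surface marker of fibroblasts, read 11.00, inside the range of 10.71 to 11.30. Nt5e (CD73), an ectonucleotidase also found on fibroblasts, was low in MKOS, at 8.81 against 10.28, 10.40 and 9.96 (-1.41 ± 0.21).

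Matrix-remodelling proteases and their regulators lay above the comparators in 13 of 21 cases and below in 3, against 27.1% and 31.3% of all genes. Adamts1, a secreted metalloprotease, read 10.46 in MKOS against 9.38, 9.13 and 8.64 (1.41 ± 0.34). Adamts5, an aggrecan-cleaving relative, read 9.98 against 9.10, 8.60 and 8.12 (1.37 ± 0.43). The membrane-bound collagenase Mmp14 read 11.96 against 11.35, 11.35 and 10.62. Plaur, the urokinase receptor, was lower, with 9.18 against 10.18, 10.37 and 9.91. The 10 fibroblast markers used to check the cells, among them Vim, Dcn and Pdgfra, averaged 11.65 in MKOS and 11.32, 11.24 and 10.87 in OSKM, OK+9MS and OKN-HAMS. None of them read under 6 on MKOS, but nor did any measured erythroid, neuronal or keratinocyte marker, so that floor does not single out fibroblasts. The fibroblast mean was the highest of the marker sets on each of the 4 arrays, with the neuronal markers next, at 8.63 in MKOS.

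Interferon-response genes read higher in MKOS. Of 23, 20 lay above all 3 comparators and 0 below, 2 of the 20 by 2-fold or more, with a median of 0.59 (0.56 without OKN-HAMS). Ifit3, an interferon-induced antiviral protein, read 11.17 in MKOS against 10.13, 10.17 and 9.43 (1.26 ± 0.37). Ifit2, of the same family, read 8.73 against 7.61, 7.81 and 7.29 (1.16 ± 0.24). The neighbouring copy Ifit3b read 7.74 against 6.10, 6.24 and 5.58, and may share probes with Ifit3. Ifit1 read 11.60 against 10.75, 10.99 and 10.44, and the RNA sensor Ifih1 (MDA5) read 10.10 against 9.25, 9.37 and 8.88. Usp18, which dampens interferon signalling, read 10.03 against 9.02, 9.72 and 8.51. Oas1a, at 7.67, stayed inside the range. MKOS was not high among all arrays: Ifit3 read 11.31 in Klf4S, 11.64 in Klf4L, 11.66 in lacZ and 11.62 in STEMCCA.

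The Ifit1 and Ifit3 promoters are shown because these genes lay high in the same arrays and share a motif. The RefSeq windows on GRCm38.p6 are chr19:34640639-34640938 for Ifit1 and chr19:34583279-34583578 for Ifit3, both on the plus strand. The capitals mark matches to the interferon-stimulated response element, searched as GAAA, any 2 bases and GAAA again, all of them on the opposite strand, with 2 in each window.
Ifit1: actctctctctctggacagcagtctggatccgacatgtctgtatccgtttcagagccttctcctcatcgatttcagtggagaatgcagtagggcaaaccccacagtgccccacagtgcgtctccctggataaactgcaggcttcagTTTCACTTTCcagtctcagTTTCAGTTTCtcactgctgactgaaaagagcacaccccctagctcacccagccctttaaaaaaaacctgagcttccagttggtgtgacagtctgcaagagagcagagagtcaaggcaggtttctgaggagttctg
Ifit3: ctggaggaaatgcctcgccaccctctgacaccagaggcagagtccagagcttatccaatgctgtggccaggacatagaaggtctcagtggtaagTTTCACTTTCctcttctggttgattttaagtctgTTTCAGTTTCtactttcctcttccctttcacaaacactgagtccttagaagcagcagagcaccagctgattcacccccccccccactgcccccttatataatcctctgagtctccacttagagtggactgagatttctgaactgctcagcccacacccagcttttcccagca
With both strands searched, this element stood in 11 of the 18 interferon-response promoters in the table (61.1%), in 3.49% of all promoters, in 6 of 67 higher genes (8.96%) and in 5 of 136 lower genes (3.68%). CACCC, the core letters bound by Klf4 and its relatives, stood in 64.7% of the promoters of lower genes, 64.2% of higher genes and 56.7% of all.

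Other genes higher in MKOS formed no single theme among the lists used. Ces1f, a carboxylesterase, read 10.37 in MKOS against 6.77, 7.32 and 7.37 (3.22 ± 0.30), and no other array of the series read above 7.37. Its relative Ces1d read 7.17 against 5.65, 5.94 and 5.82, a lower bound in size. The paralogs are near-identical in places, and their signals may not be independent. Gatm, the first enzyme of creatine synthesis, read 10.42 against 8.21, 8.27 and 8.78 (2.00 ± 0.28), but EB-C5 (10.61) and WTSI (10.18) were as high as MKOS. Stra6, the receptor for retinol-binding protein, read 9.27 against 7.77, 7.53 and 8.10 (1.47 ± 0.26). The transmembrane protease Tmprss11b read 8.07 against 5.96, 6.48 and 6.55, and no other array exceeded 6.55. Angptl4, an inhibitor of lipoprotein lipase, read 9.23 against 8.10, 8.13 and 7.80 (1.22 ± 0.17), below both Klf4-alone arrays at 9.68 and 9.93.

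Most of these genes placed MKOS on the side of the Klf4-alone arrays, but this side was not particular to those arrays. For 168 of the 178 lower genes, both Klf4S and Klf4L also lay below all 3 comparators, as they did for 4642 of all 19938 genes. For 72 of the 89 higher genes both lay above, as they did for 6113 of all genes. The lacZ array lay below all 3 comparators for 156 of the 178 lower genes, against 5561 of all genes. It lay above them for 48 of the 89 higher genes, against 7556 of all. The other 4 cassettes together lay below the comparators for 108 of the 178 lower genes, against 1531 of all 19938 genes. They lay above for 6 of the 89 higher genes, against 1189 of all genes, a similar share. STEMCCA alone had a median of 9.00 over the higher genes, against 8.17 for the comparators' mean. The medians of OKMS, EB-C5 and WTSI were 8.17, 8.08 and 7.82. These counts and medians share the comparators with the choice of genes, so they describe position and test nothing. MKOS differed 2-fold or more from Klf4S in 551 genes (2.76%), from Klf4L in 550 (2.76%) and from STEMCCA in 466 (2.34%). These counts are above those against OSKM (254) and OK+9MS (273) and below that against OKN-HAMS (822).

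Among the 267 genes, 8 of the 178 lower and 19 of the 89 higher ones placed MKOS outside all 10 other arrays, against 2339 of all 19938 genes. That share was no larger over the 267 than over all genes. By direction, it was smaller than over all genes on the lower side and larger on the higher side. MKOS was the highest of the 11 for 19, among them Ces1f, Krt20, Tmprss11b, Stra6, Ivl, Sprr1a, Slc12a8 (a cation-chloride cotransporter relative, 8.09 against 7.13 in the next array) and Dcx (doublecortin, 7.23 against 6.60). It was the lowest for 8: Foxd1, Hhip, Htra4, Pde2a, Rangrf, Slc6a12, Tpbgl and Tspan18. Foxd1, a forkhead transcription factor of stromal cells, read 7.27 in MKOS, at a difference of -1.74 from the comparators, but the next array, at 7.45, was close to it. Tpbgl likewise read 7.68 against 10.0045, 9.54 and 9.66, with 7.73 in STEMCCA, so it was as low in that cassette.

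The 13 genes that limma called when all 11 arrays gave the spread were Tpbgl, Sult2b1, Tmem45b, Slc15a1, Galnt6, Nlrp10, Slc6a12, Ret, Lipm and Crybg1 on the lower side and Ces1f, Slc12a8 and Ces1d on the higher side. Sult2b1, a cholesterol sulfotransferase of epidermis, read 8.38 in MKOS against 10.005, 10.29 and 10.40. Lipm, an epidermal lipase, read 6.58 against 8.71, 8.22 and 8.25. That fit adds the spread among the other cassettes and between the Klf4-alone arrays. Residual degrees of freedom were 5 with the 8 cassettes and 6 with the 11 arrays. Beyond the 8 cassettes, only the pair of Klf4S and Klf4L adds spread, since lacZ is a single array. Those 2 arrays were nearly identical, with 0 genes at 2-fold between them, so these calls depend on a pair with very little spread. With the 8 cassettes alone the smallest limma adjusted p was 0.114.

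Markers of cell types that a fibroblast culture could also hold were read beside these results. The 9 macrophage markers measured averaged 6.53 in MKOS against 6.67, 6.94 and 6.95, and the defining genes Ptprc (5.66), Adgre1 (5.39) and Csf1r (6.05) read at or near background in MKOS, as in the comparators. Laptm5, a lysosomal protein of leukocytes, was the member that stood out, with 7.80 in MKOS against 8.90, 10.60 and 10.92 (-2.34 ± 0.96). The 8 endothelial markers averaged 6.70 in MKOS against 6.80 to 6.89. Of 5 erythroid markers only 2 were measured, Alas2 and Slc4a1, and they averaged 6.59 against 6.56 to 6.76. In the longer erythroid list, 5 of 8 genes lay below the comparators and 0 above, against 31.3% and 27.1% of all genes. Neither set holds a measured reading of the globin Hbb-y, which was highest in MKOS of all 11 arrays. It read 9.84 against 8.88 in the next array, at a difference of 1.28 from the comparators. The 6 neuronal markers averaged 8.63 in MKOS against 8.31, 8.28 and 8.51, so MKOS was the highest of the 4, while the neurofilament gene Nefl was lower in it (10.50 against 11.65, 11.95 and 12.22, -1.44 ± 0.26). The part of any other cell type in the results was not tested.

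Signalling genes gave few large differences. Id4 and Id1, inhibitors of helix-loop-helix factors and targets of BMP signalling, were lower in MKOS: Id4 read 7.82 against 9.47, 9.34 and 10.04 (-1.79 ± 0.33), and Id1 9.04 against 9.77, 10.50 and 9.99. The phosphatase Dusp4, a feedback inhibitor of MAP kinases, read 7.82 against 8.50, 9.36 and 9.06. Without OK+9MS the differences of Id1 and Dusp4 are -0.84 and -0.95. In the Wnt list of 27 genes, Wnt7a was lower (7.75 against 9.07, 9.24 and 8.05) and the Wnt inhibitor Dkk2 higher (9.57 against 8.86, 9.03 and 7.35). Wnt7a is under 2-fold without OSKM or OK+9MS, and Dkk2 is at 0.62 without OKN-HAMS. Uhrf1, which recruits DNA methylation to replicating DNA, read 8.62 against 9.26, 9.56 and 10.30 (-1.09 ± 0.48, and -0.80 without OKN-HAMS). Hoxd13, a homeobox gene of the distal limb, read 9.83 against 9.15, 9.54 and 7.17, a difference of 1.21 ± 1.13 that is 0.48 without OKN-HAMS.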

How the data were processed

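Expression was measured on 1 Affymetrix mouse gene array per construct. The deposited values are log2 signals that the authors computed with RMA (background correction, normalization and summarization), per the submitters' processing notes. No RMA version is given in the sources used here. Of 28856 probe sets, 21789 had 1 gene symbol, 1621 several and 5446 none, and 21698 matched an Entrez entry. Probe sets with 1 symbol were kept, and for the 999 genes with several probe sets the one with the highest mean was used, which gave 19938 genes. Array medians ran from 7.188 to 7.269.

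MKOS was compared with the 3 comparators with limma 3.58.1 in R 4.3.3 (lmFit, eBayes, Benjamini-Hochberg adjustment, 2 residual degrees of freedom). The fit was also run on simulated data in which MKOS was given the same spread as the comparators. That run could not test whether the MKOS array varies as they do. Named genes were those with the 15 widest gaps in each direction among 2-fold differences (higher side at least 7), up to 4 members of each of 36 lists past 2-fold, and the 4 factors; a few list members under 2-fold, the 13 genes of the 11-array fit and the genes at the extremes of all arrays were named after their values were seen. Members and lists were chosen with earlier results of these data known. Alternatives changed the probe set rule, the dim filter, the normalization, the comparators, the fold and the arrays that gave the spread.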

Additional observations from a re-analysis of the deposited data

Results flagged for a closer look

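For each of 77 named genes, the other 4 cassettes (OKMS, STEMCCA, EB-C5 and WTSI) were searched for 1 array far from the rest by Dixon's ratio of gap to range. This found 8 genes, and chance alone gives about 1 in 20 groups. OKMS was high for Ret (7.52 against 6.76 to 6.88), Cyp2s1 (10.09 against 7.16 to 7.44), Krtdap (10.19 against 5.59 to 6.18) and Utf1 (10.89 against 6.64 to 7.25). STEMCCA was high for Col6a3 (11.01 against 10.01 to 10.02) and low for Nefl (8.89 against 11.53 to 11.77) and Krt84 (5.99 against 6.27 to 6.29). EB-C5 was high for Ivl (6.23 against 5.99 to 6.01). The values of Krt84 and Ivl lie near background.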

How the results depend on the processing

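No paired analysis was possible because the labels give no replicate numbers and MKOS has 1 array. The 89 higher genes became 8 at 3-fold, 700 at 1.5-fold and 18 when the gap to the nearest comparator had to be 2-fold; the 178 lower genes became 44, 747 and 77. Leaving out 1 comparator gave 38 to 159 higher and 169 to 226 lower genes. limma called 0 genes in each fit except that with the spread of 11 arrays (3 higher and 10 lower). Of the named genes' values under the alternatives, 613 shifted by less than the standard deviation of the 3 comparators and 1 moved more (Crybg1 to -1.49 with its probe sets averaged). Leaving out 1 of 3 comparators cannot shift their mean that far. The probe set rule can change only the 1 named gene with several probe sets, and the dim filter changes no value. The count was thus largely fixed in advance and says little about stability. The Sox2 difference, near 0 at -0.01, changed sign to 0.02 after quantile normalization and to 0.01 without OKN-HAMS, and no other named gene changed sign. Of 73 named genes at 2-fold, 13 fell under it without OKN-HAMS, 5 without OK+9MS and 2 without OSKM. The main limit is 1 array per construct: the spread between repeated cultures is unknown, and signals under 6 give only bounds.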

Other observations

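Imprinted growth genes showed differences on both sides. Phlda2, an imprinted regulator of placental growth, read 11.00 in MKOS against 12.05, 12.12 and 11.62 in OSKM, OK+9MS and OKN-HAMS (-0.92 ± 0.25), while no array outside these 4 read above 8.69. Igf2r, the receptor that clears IGF2, read 11.74 against 10.86, 11.14 and 10.60 (0.87 ± 0.24), and Ndn (necdin) 11.50 against 10.95, 10.92 and 10.09. Of 17 such genes, 10 lay above the comparators and 1 below, against 27.1% and 31.3% of all genes. These genes were named after their values were seen.

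Over all 36 lists, the mean signal of MKOS lay above the 3 comparators for 9, below for 20 and inside for 7. For 24 lists it lay between the comparators and both Klf4-alone arrays. Genes of the stratified keratin list were an exception, with a mean of 8.17 in MKOS against 8.62 in Klf4S, 8.77 in Klf4L and 9.07 to 9.50 in the comparators.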
